A study of Mus musculus with 16 samples.

Results

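The strain effect that differs between cell types was taken as the difference of 2 strain differences, Sle2c1 minus B6 in B1a cells and Sle2c1 minus B6 in splenic B cells (Bs), for every feature on all 16 arrays of the series. It is called the interaction below. A higher interaction means that the strain difference was more positive in B1a cells than in Bs cells, and a lower one that it was more negative. Of 22727 features tested (15129 named genes and 7598 probe sets without a single gene name), 98 passed the test, 60 higher and 38 lower.

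The arrays held 4 groups of 4, all from mice of 5 months. B6 B1a and B6 Bs came from C57BL/6 mice, and Sle2c1 B1a and Sle2c1 Bs from the congenic strain B6.Sle2c1, which carries a lupus susceptibility interval of NZM2410 origin on the C57BL/6 background. Per the labels, B1a preparations were peritoneal cells depleted of adherent macrophages by a 2 h culture and then selected on Thy1.2, CD3ε and CD5, and about 80% of the cells were B220int CD5+. The labels name a positive selection with the CD5 antibody and also a removal of antibody-bound cells, so that the fraction kept is read here from the stated yield of CD5+ cells. Bs preparations were CD43-negative spleen cells, of which more than 90% were B220hi. The whole interval differed between the strains in both cell types, so that no strain difference here can be assigned to 1 gene. The replicates are described as biological, but not as single mice or pools, and p-values measure the spread between these arrays.

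B1a cells are a self-renewing B cell population of the body cavities that secretes natural antibodies and interleukin 10, while most splenic B cells are follicular or marginal zone cells. Cdkn2c, which the title of the study names, encodes p18INK4c, an inhibitor of the G1 kinases Cdk4 and Cdk6. An interaction asks whether the same congenic interval goes with a different expression change in each of these populations.

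Levels are in units of the deposited score, whose log base and scaling are not given in the sources used here, so differences are never given as folds. Values below 0.495 units, a limit chosen here, were treated as without a usable level and raised to that value, called the floor. The true level of an array at the floor may be lower. Such arrays make the size of an interaction a minimum where they all act in its direction, and leave it without a bound where they act both ways.

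Cell identity was read from marker genes. Ms4a1, which encodes CD20, averaged 3.78 units in B1a and 3.98 in Bs cells, and Cd79a 2.84 and 3.00 (8 arrays each). Il10 averaged 2.73 in B1a cells and was at the floor on all 8 Bs arrays, and the marker Cd5 averaged 0.911 with 6 of 8 B1a arrays above the floor. Fcer2a (CD23) and Cr2 (CD21) averaged 2.72 and 3.38 in Bs cells against 0.713 and 1.06 in B1a cells. The sexes did not match between cell types. Xist, which is expressed in females, read 3.26 to 3.34 on the 8 B1a arrays and at most 1.12 on the 8 Bs arrays. The Y-linked genes Eif2s3y and Kdm5d read 3.12 to 3.35 and 2.77 to 2.95 on the Bs arrays and at most 1.14 and 1.27 on the B1a arrays. The Y-linked gene Uty was low everywhere and went against this pattern in 1 group, with 1.41 ± 0.614 (SD, n = 4) in Sle2c1 B1a and all 4 arrays of B6 B1a at the floor. B1a and Bs arrays thus read as female and male mice, the labels do not give the sex, and for every interaction below cell type and sex cannot be told apart. On the first principal component (48.8% of the variance) B6 Bs 1 lay at -11.5, the Bs array nearest to most B1a arrays. Sle2c1 B1a 4 lay at -2.4, so that the cell types overlapped on this component. On the second component Sle2c1 B1a 4 lay apart.

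Cdkn2c was lower in Sle2c1 mice in both cell types. It read 1.19, 1.27, 1.04 and 1.35 units in B6 B1a, and 0.58 and 0.88 with 2 arrays at the floor in Sle2c1 B1a. In B6 Bs it read 1.43, 1.39, 1.21 and 1.63, and in Sle2c1 Bs 0.60 with 3 arrays at the floor. All B6 arrays lay above all Sle2c1 arrays of the same cell type. The strain difference was -0.60 units in B1a (limma adjusted p = 0.00392) and -0.89 in Bs (adjusted p = 0.00114). The interaction was 0.29 units (SE 0.145, 95% interval -0.0172 to 0.605, limma adjusted p = 0.71) and did not pass. Both Sle2c1 groups held arrays at the floor, 5 in all, so that their true levels may be lower and the interaction of another size.

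Across all features the share past the interaction test was 0.431% (limma, adjusted p under 0.05), with 0.264% higher and 0.167% lower. At an unadjusted p under 0.05 it was 7.42%. Sle2c1 and B6 differed at 768 features in B1a cells (3.38%), 439 higher (1.93%) and 329 lower (1.45%) in Sle2c1. In Bs cells they differed at 35 (0.154%), 28 higher (0.123%) and 7 lower (0.0308%). These are separate tests and not a test of the difference. Strain differences that passed in both cell types with opposite sign numbered 0 in limma, against 23 at an unadjusted p under 0.05 in both and 3 when arrays were weighted. Another 21 features passed in both with the same sign.

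Most of the 98 calls rested on groups at the floor. Of the 8943 features measured on every array, 4 passed (0.0447%), 2 higher and 2 lower (0.0224% each), and 479 had an unadjusted p under 0.05. Adjusted among these features alone, 0 of them passed in limma. Among the 5519 features with at least 1 whole group at the floor, 71 passed (1.29%), which is 72.4% of all calls, with 45 higher (0.815%) and 26 lower (0.471%). The other 23 calls came from 8265 features with single arrays at the floor (0.278%), 13 of them higher (0.157%) and 10 lower (0.121%). A group at the floor has no spread of its own, and with such groups left out of the estimated spread 23 features passed in place of 98. With a spread that follows the level and is robust to outliers, 10 features passed.

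**Figure D1:**
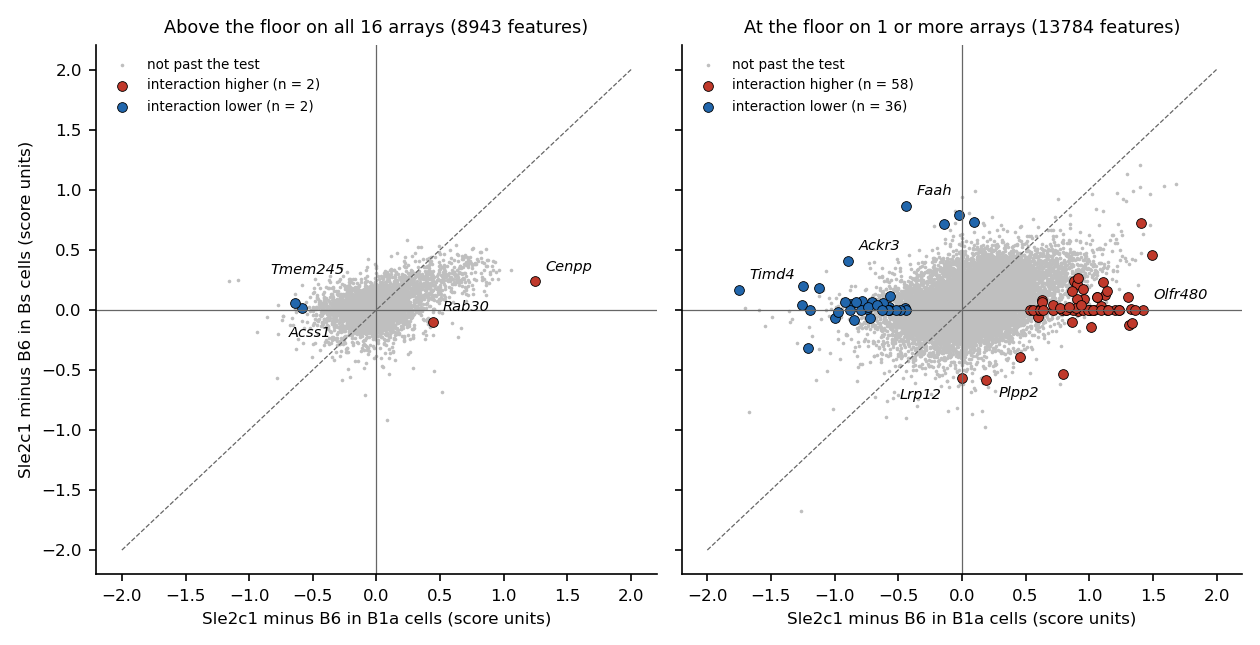
Strain difference (Sle2c1 minus B6, score units) in B1a cells on the x axis against that in Bs cells on the y axis, for 8943 features above the floor on all 16 arrays (left) and for the other features (right). Grey points did not pass the interaction test, red and blue points passed as higher and lower, and the dashed line marks equal strain differences. Only 4 points pass on the left, and on the right most of the 94 lie close to the horizontal line, with little strain difference in Bs cells.

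The calls differed in where the strain difference lay. The larger of the strain differences was that of B1a cells for 92 of the 98 calls (58 higher, 34 lower). It was that of Bs cells for 6 (2 higher, 4 lower). The B1a difference was the larger for 66.8% of all features and 73.4% of those with a whole group at the floor. In 33 calls both Bs groups were at the floor on all 8 arrays, so that these features had no level above the floor in Bs cells. The floor itself makes the B1a difference the larger in these 33. B6 B1a was wholly at the floor in 25 calls, 24 of them higher, and Sle2c1 B1a in 19, 18 of them lower. Counting single arrays at the floor too, the size was a minimum for 7 higher and 15 lower calls and without any bound for 51 and 21. In 15 higher and 12 lower calls no group lay wholly at the floor.

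**Figure D2:**
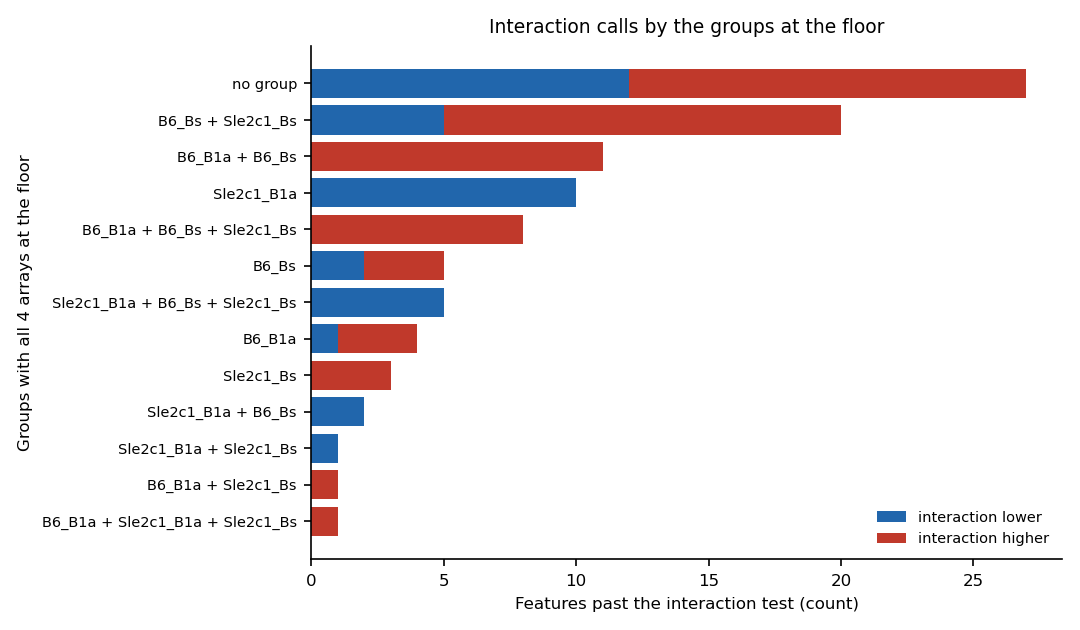
Number of features past the interaction test (x axis) by the groups whose 4 arrays all lay at the floor (y axis), split into lower (blue) and higher (red) interactions. The largest class has no group at the floor (27 calls), followed by both Bs groups at the floor (20 calls).

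Over the features measured on every array, strain differences were small in both cell types. Their median size was 0.075 units in B1a and 0.045 in Bs, and the B1a difference was the larger for 65.1% of the features. The median SD within a group was 0.0668 in B6 B1a, 0.0943 in Sle2c1 B1a, 0.105 in B6 Bs and 0.0804 in Sle2c1 Bs. Across these 8943 features, which are not independent replicates, the strain differences of the 2 cell types had a Pearson r of 0.444 and a Spearman rho of 0.283. They come from separate arrays, all of which share the deposited processing.

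Cenpp, which encodes a subunit of the inner kinetochore, had the largest interaction of the 4 genes above the floor everywhere. It read 1.06, 0.95, 0.61 and 0.61 units in B6 B1a and 2.15, 2.07, 2.00 and 1.99 in Sle2c1 B1a. In B6 Bs it read 1.26, 1.33, 1.00 and 1.25, and in Sle2c1 Bs 1.55, 1.46, 1.27 and 1.52. The B1a groups were far apart, while the ranges of the Bs groups overlapped. The strain difference was 1.25 units in B1a and 0.24 in Bs, with an interaction of 1.01 (SE 0.154, 95% interval 0.674 to 1.34, limma adjusted p = 0.00887). It passed without each array in turn. It did not pass with quantile normalization (limma adjusted p = 0.0568), arrays centred on their median (0.114), percentile ranks (0.117) or a spread that follows the level (0.0614). Of the other 2 probe sets of Cenpp, 1 had a small interaction of the same sign (0.085, unadjusted p = 0.825) and 1 the opposite sign (-0.365, unadjusted p = 0.329). The mean of the 3 did not pass (0.242, limma adjusted p = 0.892).

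Rab30, a Rab GTPase of the Golgi, was the other higher gene of this class. It read 1.63, 1.83, 1.91 and 1.93 units in B6 B1a and 2.13, 2.45, 2.26 and 2.22 in Sle2c1 B1a, against 2.26, 2.32, 2.26 and 2.23 in B6 Bs and 2.15, 2.21, 2.18 and 2.14 in Sle2c1 Bs. The lowest array group was B6 B1a, and the other 3 groups lay close together. The interaction was 0.54 units (SE 0.108, limma adjusted p = 0.0471), and it passed in 2 of the 16 fits that leave out 1 array. A second probe set gave 0.103 (unadjusted p = 0.53), and the mean of both did not pass (adjusted p = 0.541). Of 17 other settings, 4 kept the call.

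Both lower genes of this class fell in Sle2c1 B1a cells and changed little in Bs cells. Tmem245, a membrane protein, read 1.94, 1.86, 1.76 and 1.82 units in B6 B1a and 1.46, 1.13, 1.27 and 0.96 in Sle2c1 B1a, with 1.80, 1.83, 1.70 and 1.95 in B6 Bs and 1.91, 1.83, 1.88 and 1.89 in Sle2c1 Bs. Its interaction was -0.70 (SE 0.129, limma adjusted p = 0.0299). Acss1, a mitochondrial acetyl-CoA synthetase, read 3.35, 3.05, 2.89 and 2.94 in B6 B1a and 2.53, 2.41, 2.46 and 2.48 in Sle2c1 B1a, while the Bs groups averaged 3.27 ± 0.0835 and 3.28 ± 0.0532 (SD, n = 4). Its interaction was -0.61 (SE 0.122, limma adjusted p = 0.0492). In both genes every Sle2c1 B1a array lay below every array of the other 3 groups. Another probe set of Acss1 gave -0.50 (unadjusted p = 0.000465) and read near the floor in Bs cells, where the first read above 3. Without 1 array, Tmem245 passed in 6 and Acss1 in 4 of 16 fits. With the replicate number as a block in Bs cells, where the numbers paired the arrays, Cenpp alone of the 4 genes passed.

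**Figure D3:**
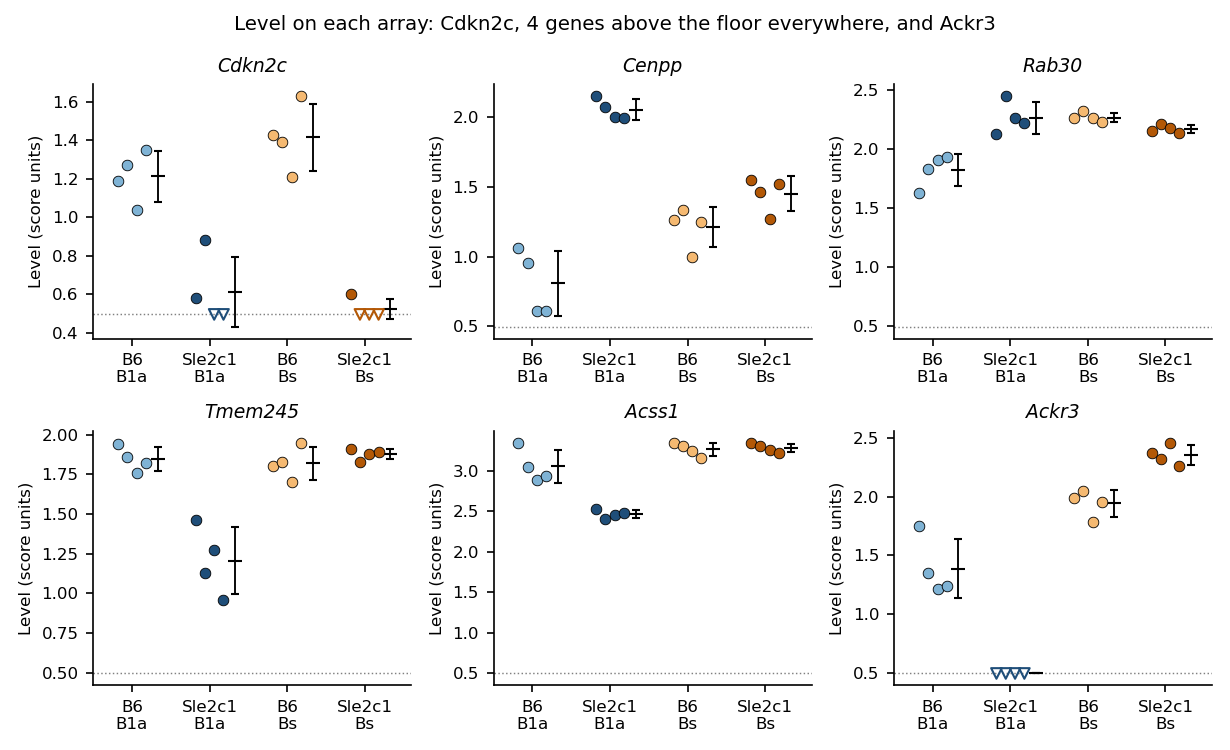
Level of 6 genes on each array (y axis, score units) by group (x axis), with mean and SD (n = 4) to the right of each group. Open triangles are arrays at the floor, and the dotted line is the floor at 0.495 units. Cdkn2c is lower in Sle2c1 in both cell types, whereas in Cenpp, Rab30, Tmem245, Acss1 and Ackr3 the B1a groups are further apart than the Bs groups.

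The next genes measured on every array did not pass. On the positive side these were Fcgr4, an activating Fc receptor of myeloid cells, with 0.96 units (limma adjusted p = 0.0813), Hspa2, a chaperone, with 0.35 (0.116), the mismatch repair gene Mlh3 with 0.44 (0.172) and the mitochondrial import gene Timm9 with 0.33 (0.178). Fcgr4 averaged 1.67 ± 0.31 in B6 B1a and 2.12 ± 0.168 in Sle2c1 B1a, against 2.48 ± 0.222 in B6 Bs and 1.97 ± 0.151 in Sle2c1 Bs (SD, n = 4), and its strain differences of 0.46 and -0.51 had opposite signs. On the negative side, Pstk, a kinase of selenocysteine synthesis, had -0.48 units (limma adjusted p = 0.0744), the minor spliceosome gene Snrnp25 -0.65 (0.0935), Rabgap1l -0.38 (0.107) and Cobll1 -0.31 (0.109).

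Ackr3 had the most stable call of the genes described. It encodes an atypical chemokine receptor that takes up Cxcl12 and is known from marginal zone B cells. It read 1.75, 1.35, 1.21 and 1.24 units in B6 B1a and was at the floor on all 4 Sle2c1 B1a arrays. In B6 Bs it read 1.99, 2.05, 1.78 and 1.95, and in Sle2c1 Bs 2.37, 2.32, 2.46 and 2.26. In B1a cells every Sle2c1 array lay below the B6 arrays, and in Bs cells every Sle2c1 array lay above them. The strain difference was -0.89 units or beyond in B1a (limma adjusted p = 0.00016) and 0.41 in Bs, which did not pass (adjusted p = 0.334). The interaction was at least 1.30 units in size (-1.30, SE 0.144, limma adjusted p = 0.000631). It passed under each of 16 other settings (adjusted p from 0.000589 to 0.0411) and without each of the 16 arrays.

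The largest lower interaction was that of Timd4, which encodes the phosphatidylserine receptor Tim-4. It read 2.43, 1.54, 2.16 and 2.85 units in B6 B1a and was at the floor on all 4 Sle2c1 B1a arrays. In B6 Bs it was at the floor on 1 array and read 1.26, 1.60 and 0.94 on the others, and in Sle2c1 Bs it read 1.13, 1.33, 1.58 and 0.92. The Bs groups overlapped. Its interaction was at least 1.92 units in size (-1.92, SE 0.364, limma adjusted p = 0.0358), and it passed in 6 of the 16 fits without 1 array.

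Lpl and Apoe were likewise at the floor on all 4 Sle2c1 B1a arrays. Lpl, lipoprotein lipase, read 1.57, 1.33, 1.60 and 1.97 units in B6 B1a and was at the floor throughout Sle2c1 B1a. In Bs cells it ranged from 0.73 to 1.39 in B6 and from 1.02 to 1.50 in Sle2c1. Its interaction was -1.30 (SE 0.221, limma adjusted p = 0.0177), a minimum in size. The Lpl call held in 14 of the 16 fits without 1 array and in 11 of 16 other settings. It failed with wholly floored groups left out of the spread (limma adjusted p = 0.136) and with a floor of 1 unit (0.203). A second Lpl probe set, not past the filter, averaged 0.579 units in B6 B1a and 0.739 in Sle2c1 B1a. Apoe, apolipoprotein E, read 1.75, 1.50, 1.64 and 1.92 in B6 B1a and was at the floor throughout Sle2c1 B1a. Unlike Lpl it was also lower in Sle2c1 Bs, where 1 array read 0.52 and 3 were at the floor, than in B6 Bs with 1.06, 0.74, 0.74 and 0.73. Its Bs difference of -0.32 did not pass (adjusted p = 0.519), and its interaction was -0.89 (SE 0.125, limma adjusted p = 0.00557), with no bound since Sle2c1 arrays of both cell types lay at the floor. On values without a floor the sign of the Apoe interaction turned (0.145, limma adjusted p = 1).

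Ecm1, a secreted matrix protein, averaged 1.75 ± 0.372 units in B6 B1a (SD, n = 4) and was at the floor throughout Sle2c1 B1a and B6 Bs, with 1 Sle2c1 Bs array at 0.64. Its interaction was -1.29 (limma adjusted p = 0.00557), also without a bound. The Ecm1 call held without each array in turn and in 11 of 16 other settings. It failed with wholly floored groups left out of the spread (limma adjusted p = 0.21) and with a floor of 1 unit (0.145). Adamts4, a protease of proteoglycans, averaged 1.77 ± 0.182 in B6 B1a and had 1 of 4 Sle2c1 B1a arrays above the floor (interaction -1.45, adjusted p = 0.000533), but a second probe set gave -0.255 (unadjusted p = 0.44) and the mean of both did not pass. Pmp22, a membrane protein of myelin, averaged 1.85 ± 0.426 and 0.658 ± 0.233 in the B1a groups and was at the floor in all Bs arrays (interaction -1.20, adjusted p = 0.0399). The Pmp22 call held in 4 of the 16 fits without 1 array and in 6 of 16 other settings, and not with the replicate block in Bs cells (limma adjusted p = 0.114). Tgfbr3, the TGF-β co-receptor betaglycan, read 1.29 to 1.52 in B6 B1a and was at the floor in Sle2c1 B1a (interaction -0.98, adjusted p = 0.000631, without a bound). Its other probe set had the opposite sign (0.309, unadjusted p = 0.27), and the mean of both did not pass (-0.337, limma adjusted p = 0.661).

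Icosl, the ligand of the T cell costimulator ICOS, was strongly expressed in Bs cells of both strains. It read 3.11, 3.05, 2.89 and 2.95 units in B6 Bs and 3.12, 3.03, 3.02 and 3.08 in Sle2c1 Bs. In B6 B1a it read 1.68, 1.59, 1.48 and 1.44, and in Sle2c1 B1a 0.93 and 0.95 with 2 arrays at the floor. The B1a groups did not overlap and the Bs groups did. The interaction was -0.89 (SE 0.15, limma adjusted p = 0.0165), and it did not pass with arrays centred on their median (adjusted p = 0.0625). Its second probe set went the other way (0.53, unadjusted p = 0.0481), and the mean of both did not pass (-0.182, limma adjusted p = 0.94). Bnip3, a mitophagy receptor, averaged 1.53 ± 0.0906 in B6 B1a, 0.658 ± 0.238 in Sle2c1 B1a, 1.83 ± 0.123 in B6 Bs and 1.88 ± 0.0663 in Sle2c1 Bs (interaction -0.92, adjusted p = 0.0105). Rubcn, an inhibitor of autophagosome maturation, was at the floor in Sle2c1 B1a and averaged 1.47 ± 0.36 in B6 B1a, with 2.04 ± 0.152 and 2.02 ± 0.0648 in the Bs groups (interaction -0.95, adjusted p = 0.0497). Its call held in 2 of the 16 fits without 1 array, and not with the replicate block in Bs cells (limma adjusted p = 0.103).

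In 6 calls the strain difference lay mainly in Bs cells. They are described because of that pattern and were picked after their values had been seen. Faah, which hydrolyses the endocannabinoid anandamide, read 1.28, 0.98 and 0.94 units in B6 Bs with 1 array at the floor, and 1.91, 1.87, 1.75 and 1.63 in Sle2c1 Bs. In B6 B1a it read 1.66, 1.73, 1.38 and 1.44, and in Sle2c1 B1a 1.52, 0.86, 0.94 and 1.14. The strain difference was 0.87 in Bs (adjusted p = 0.066) and -0.44 in B1a (adjusted p = 0.184), and the interaction was -1.30 (SE 0.232, limma adjusted p = 0.0248). It passed in 9 of the 16 fits without 1 array, and its second probe set gave -0.193 (unadjusted p = 0.152). Plpp2, a lipid phosphate phosphatase, went the other way. It fell in Bs cells from 1.21, 0.89, 1.20 and 1.30 in B6 to 0.54, 0.68 and 0.55 with 1 array at the floor in Sle2c1, while the B1a groups averaged 1.65 ± 0.109 and 1.85 ± 0.0656. Its interaction was 0.78 (SE 0.122, limma adjusted p = 0.0102). Its second probe set gave 0.271 (unadjusted p = 0.267), and the mean of both did not pass.

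Lrp12, a lipoprotein receptor family member, was measured in 1 group alone. It read 0.90, 1.02, 1.15 and 1.18 units in B6 Bs and was at the floor on the other 12 arrays (interaction 0.57, limma adjusted p = 0.00576). All groups but B6 Bs thus had no spread of their own. The Lrp12 call held in 10 of 16 other settings. It failed when the spread was estimated without those groups (limma adjusted p = 0.581). It also failed with a floor of 1 unit (0.0875 units, limma adjusted p = 0.792). Fam71b and the clone 4931429P17Rik were measured on all 4 Sle2c1 Bs arrays, at 1.31 ± 0.223 and 1.22 ± 0.0311 (SD, n = 4), and on 1 array of B6 Bs each, with 3 and 5 of the 8 B1a arrays above the floor. Their interactions were -0.81 (adjusted p = 0.0325) and -0.86 (adjusted p = 0.00241), and without 1 array they passed in 6 and 16 of 16 fits. The 6th was an unnamed probe set.

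**Figure D4:**
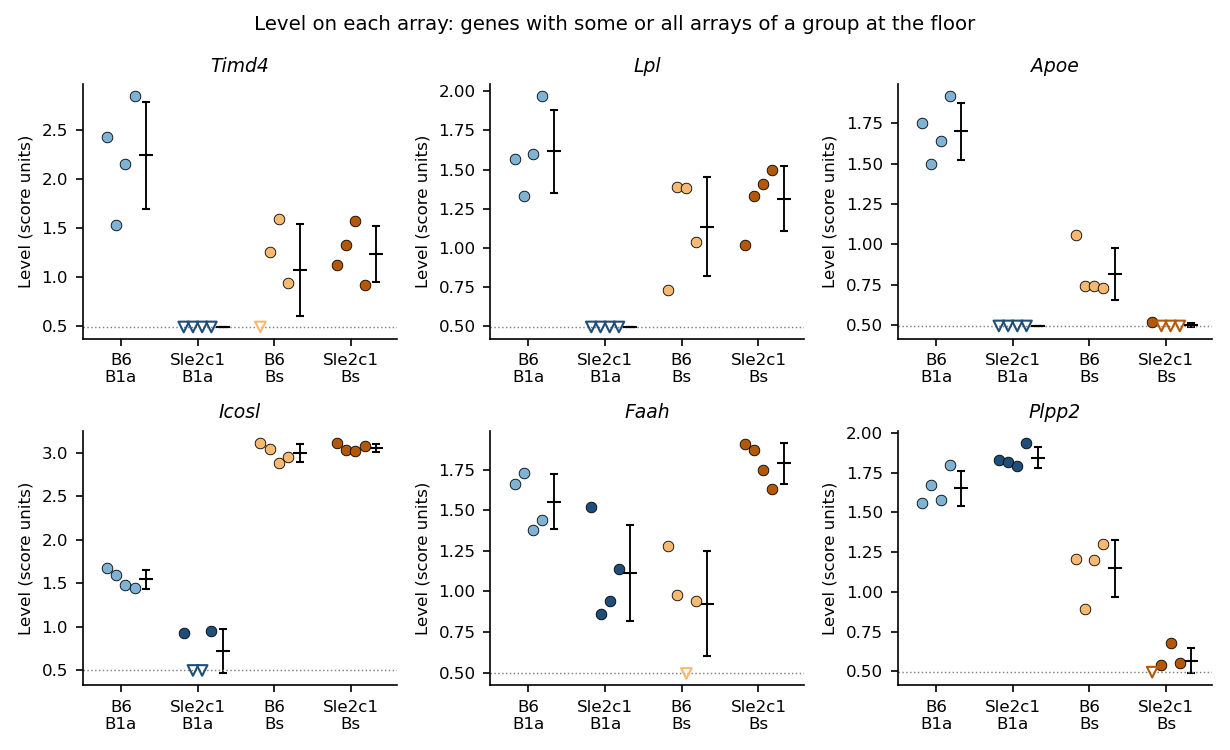
Level of 6 genes on each array (y axis, score units) by group (x axis), with mean and SD (n = 4). Open triangles mark arrays at the floor (dotted line, 0.495 units). Timd4, Lpl and Apoe are at the floor on all 4 Sle2c1 B1a arrays, Icosl on 2 of them, and in Faah and Plpp2 the Bs groups are further apart than the B1a groups.

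The largest higher interactions belonged to genes measured in Sle2c1 B1a cells alone or almost alone. Sall3, a zinc finger transcription factor of development, read 1.99, 1.85, 1.66 and 1.92 units in Sle2c1 B1a and was at the floor on the other 12 arrays (1.36 units, limma adjusted p = 2.04e-06). Tdpoz1 showed the same pattern, with 1.65, 1.80, 1.77 and 1.70 in Sle2c1 B1a (1.24 units, adjusted p = 3.52e-07). Limch1, which encodes an actin-associated protein, read 1.72, 1.92, 1.77 and 1.89 there and 0.52 on 1 Sle2c1 Bs array (1.32 units, adjusted p = 3.52e-07). The odorant receptor gene Olfr480 read 2.21, 2.13, 2.16 and 2.17 in Sle2c1 B1a and 0.76, 0.77 and 0.96 with 1 array at the floor in B6 B1a, and was at the floor on all Bs arrays (1.42 units, adjusted p = 1.25e-05). None of these 4 interactions has a bound, since groups on both sides of the difference were at the floor. Each passed without every single array, but the groups at the floor have no spread in those fits either. With such groups left out of the estimated spread, Sall3 (limma adjusted p = 0.128) and Tdpoz1 (0.0783) did not pass. On values without a floor none of the 4 genes passed (adjusted p from 0.499 to 0.986).

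Further genes of this kind were Tmem132d (1.15 units), the phosphate transporter Slc34a2 (1.09), Nhsl2 (1.03) and Astn1, an adhesion protein of migrating neurons (0.99). All 4 were above the floor on every Sle2c1 B1a array and at the floor on all 8 Bs arrays. Extl1, a glycosyltransferase gene, was at the floor in B6 B1a (1.16 units), and Pla2g6, a phospholipase, in B6 Bs (0.98 units, and -1.66 with limma adjusted p = 0.937 on values without a floor). Srd5a3, an enzyme of dolichol synthesis, was measured in all groups, with 0.784 ± 0.202, 1.85 ± 0.107, 1.26 ± 0.262 and 1.36 ± 0.17 units (SD, n = 4) in B6 B1a, Sle2c1 B1a, B6 Bs and Sle2c1 Bs (0.96 units, limma adjusted p = 0.0423). It passed in 4 of the 16 fits without 1 array. Its other probe sets gave -0.345, -0.144 and 0.0525, none with an unadjusted p under 0.05. With the replicate block in Bs cells, Extl1 (limma adjusted p = 0.071), Slc34a2 (0.118) and Astn1 (0.0821) did not pass. Without 1 array these 3 passed in 4, 2 and 10 of 16 fits, and Tmem132d, Nhsl2 and Pla2g6 in all 16. Of 16 other settings, Tmem132d, Nhsl2 and Pla2g6 passed in 11, 11 and 12. They failed when wholly floored groups did not enter the estimated spread (limma adjusted p = 0.21, 0.232 and 0.0563). A robust spread that follows the level also lost them (limma adjusted p = 0.0539, 0.073 and 0.0935). The mean of the Nhsl2 probe sets gave 0.225 (limma adjusted p = 0.609). Sall3 and Nhsl2 also had other probe sets past the filter with interactions of -0.115 for Sall3 and 0 and -0.356 for Nhsl2. Limch1 had 3 other probe sets and Pla2g6 had 2, none of them past the filter. These averaged at most 0.579 units in Sle2c1 B1a.

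Among 40 gene lists, calls fell in 4. Of 18 tested markers of large peritoneal macrophages, 1 was called lower (Timd4) and 0 higher. The shares called lower were 0.167% of all features and 0.471% of those with a whole group at the floor, as 7 of the 18 had. A negative interaction was found for 17 of the 18. The median over the 18 markers was -0.80 units, against 0.005 over all features, and -0.481 over the 2 markers measured on every array. At an unadjusted p under 0.05, 9 were lower, against 7.42% of all features in either direction. Next to Timd4 came Ednrb, the endothelin receptor B, with -1.72 (limma adjusted p = 0.0643) and the serpin Serpinb2 with -1.59 (0.148). Gata6, the transcription factor that defines these macrophages, had 0.31 (adjusted p = 0.913) and 1 of 4 arrays above the floor in each B1a group. The mean level over the 18 markers ran from 1.26 to 2.40 on the B6 B1a arrays (1.88 ± 0.469) and from 0.807 to 1.07 on the Sle2c1 B1a arrays (0.971 ± 0.117), and averaged 1.00 ± 0.0789 and 0.974 ± 0.0668 in B6 Bs and Sle2c1 Bs (SD, n = 4). Timd4, Ednrb and Vsig4 were at the floor on all Sle2c1 B1a arrays, and no marker of the list was in B6 B1a. The list mean was lower in Sle2c1 B1a than in B6 B1a, as were Timd4, Lpl, Apoe and Ecm1. Whether the list mean and these genes varied together across arrays was not tested. Timd4 is itself 1 of the 18 markers, and Apoe and Ecm1 belong to the macrophage list that follows. The shared direction is thus partly given by the choice of genes. The part of macrophage RNA in the calls of these 4 genes was not tested. In such preparations fewer cells of a type and less RNA per cell cannot be told apart.

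Of 17 tested general macrophage and complement C1q markers, 9 had a whole group at the floor. Of the 17, 2 were called lower (Apoe and Ecm1) and 0 higher. The shares called lower were 0.167% of all features and 0.471% of those with a whole group at the floor. The median over the 17 markers was -0.21 units. Their mean level was 1.57 ± 0.296 in B6 B1a (1.22 to 1.94) and 1.03 ± 0.0422 in Sle2c1 B1a (0.978 to 1.07), with 1.30 ± 0.153 and 1.11 ± 0.0802 in the Bs groups. C1qb, a complement subunit made by macrophages, was lower in Sle2c1 mice in both cell types, by 1.67 units in B1a (limma adjusted p = 0.00157) and, without passing, by 0.85 in Bs (adjusted p = 0.632). Of 13 genes of lipid uptake and storage, 2 were called lower (Apoe and Lpl), against 0.167% of all features and 0.471% of those with a whole group at the floor. Of 23 olfactory receptor genes, 2 were called higher, Olfr480 and Olfr68 (0.90 units, limma adjusted p = 0.0177), with a median of 0.19, and 17 of the 23 had a whole group at the floor. The shares called higher were 0.264% of all features and 0.815% of those with a whole group at the floor.

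Lists closer to B cell biology had 0 calls in limma. Of 14 B1a cell genes, 0 had an unadjusted p under 0.05 and the median was -0.03 units (0.0125 over the 7 measured on every array). Il10 averaged 2.81 ± 0.0469 and 2.65 ± 0.0966 in the B1a groups (SD, n = 4) and had an interaction of -0.16 (adjusted p = 0.675), and Cd5 of -0.33 (adjusted p = 0.859). Of 16 genes of B cell lineage and receptor signalling, 0 had an unadjusted p under 0.05 either (median -0.05). Of 21 chemokines and inflammatory cytokines, 7 were lower at an unadjusted p under 0.05 and none passed (median -0.34). Of all features, 7.42% lay under that p in either direction. In this list 8 genes had a whole group at the floor. The 6 genes measured on every array had a median of the opposite sign (0.199). Il6 averaged 2.27 ± 0.319 in B6 B1a, 1.16 ± 0.312 in Sle2c1 B1a, 0.645 ± 0.225 in B6 Bs and 0.571 ± 0.153 in Sle2c1 Bs (interaction -1.03, adjusted p = 0.123), and Cxcl13, the chemokine that draws B cells into follicles, had -1.40 (adjusted p = 0.301).

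The cell cycle lists, which surround Cdkn2c, had 0 calls as well. Of 19 G1 cyclins, kinases, Rb and E2F genes, 2 had an unadjusted p under 0.05 (median 0.02 units), of 23 S phase genes 0 (median 0.09) and of 29 mitosis genes 4, all higher (median 0.15). The share under that p was 7.42% of all features. The mitosis genes averaged 1.19 and 1.10 units in B6 and Sle2c1 B1a and 1.80 and 1.54 in B6 and Sle2c1 Bs. Ccnb2, a mitotic cyclin, had the smallest p, with an interaction of 0.95 (limma adjusted p = 0.397), followed by the Cdk-binding protein gene Cks2 with 0.26 (adjusted p = 0.464). Of the Cdk inhibitors, Cdkn1a (p21) had -0.71 (adjusted p = 0.336) and Cdkn2d (p19) -0.35 (adjusted p = 0.634).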

How the data were processed

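Each array gave 1 deposited score per probe set of an Affymetrix mouse expression array (45101 probe sets, 64 of them controls). RNA was amplified and labelled with a NuGEN Ovation kit, per the labels. How the authors scaled the score, its log base and the genome build are not given in the sources used here. Precision is limited by having 4 arrays per group. Every array had a lowest value of its own (-7.72 to -4.99), which 22.8% to 35.6% of its probe sets shared. The floor of 0.495 is the median of the 16 arrays' 40th percentiles, and lower values were set to it. A probe set was kept where at least 4 arrays exceeded their 40th percentile (35032 probe sets). Symbols came from the platform annotation (1 gene for 34958 probe sets, several for 932, none for 9211), updated by Entrez identifier through a RefSeq table of assembly GRCm38.p6 (99.42% matched). Genes with several probe sets were represented by the one of highest mean.

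limma 3.58.1 (R 4.3.3, with statmod 1.5.0) fitted 4 group means to the 16 arrays. Tests were two-sided, Benjamini-Hochberg adjusted over 22727 features at 0.05. The fit was tested on simulated data, with changes placed only in features well above the floor in both cell types. Changes with a group at the floor, the class of most calls, were not simulated. The members, lists and tests were chosen with earlier results of these data known. Genes named are Cdkn2c, the 12 largest higher and 12 largest lower calls without predicted genes, the calls measured on every array (filled up to 6 per direction by p), and 2 members per list with the smallest p. Other genes were named after their values had been seen. No list was tested as a set. A planned permutation of strain labels for the Cdkn2c interaction is not reported, since it assumes no strain difference in either cell type. Alternatives were other floors, filters, scalings, spreads, thresholds and gene summaries, arrays left out, and the replicate number as a block. Same-numbered Bs arrays deviated together (correlations of 0.14 to 0.714) and were taken as paired only in the block settings. The main fit, which gave the 98 calls, held no block. B1a arrays had 0.018 to 0.287, and numbers did not pair arrays across cell types.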

Additional observations from a re-analysis of the deposited data

Results flagged for a closer look

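For 31 of the genes described, the strain difference differed between B1a and Bs cells by the interaction test of limma (adjusted p under 0.05). The higher values were 1.42 units for Olfr480, 1.36 for Sall3, 1.32 for Limch1, 1.24 for Tdpoz1, 1.16 for Extl1, 1.15 for Tmem132d, 1.09 for Slc34a2, 1.03 for Nhsl2, 1.01 for Cenpp, 0.994 for Astn1, 0.978 for Pla2g6, 0.956 for Srd5a3, 0.776 for Plpp2, 0.568 for Lrp12 and 0.538 for Rab30. The lower values were -1.92 for Timd4, -1.45 for Adamts4, -1.30 for Faah, -1.30 for Ackr3, -1.30 for Lpl, -1.29 for Ecm1, -1.20 for Pmp22, -0.983 for Tgfbr3, -0.95 for Rubcn, -0.923 for Bnip3, -0.893 for Icosl, -0.891 for Apoe, -0.855 for 4931429P17Rik, -0.81 for Fam71b, -0.698 for Tmem245 and -0.605 for Acss1. These are the values of the results above and add no evidence to them.

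Of 160 sets of 4 arrays (40 genes in 4 groups), 17 held 1 array far from the other 3 (10.6%, where chance alone gives about 5% for values without a floor). In 34 of the 160 sets all 4 arrays had the same value, so that none could stand apart. In 16 of the 17 sets the other 3 arrays lay at the floor of 0.495 units, so that any array above it stands apart. The single values were 1.13 in B6 B1a 1 for Slc34a2, 1.13 in B6 Bs 3 and 0.56 in Sle2c1 Bs 2 for Extl1, 0.56 and 0.69 in B6 B1a 2 for Tmem132d and Pla2g6, 0.71 in B6 B1a 4 for Nhsl2, and 0.61 in Sle2c1 B1a 1 for Adamts4. For Fam71b they were 0.79 in Sle2c1 B1a 4 and 0.59 in B6 Bs 1, and for Tgfbr3 0.58 in B6 Bs 1 and 0.84 in Sle2c1 Bs 1. Cdkn2c at 0.60 and Apoe at 0.52 stood apart in Sle2c1 Bs 1, Limch1 at 0.52 and Ecm1 at 0.64 in Sle2c1 Bs 4, and 4931429P17Rik at 0.51 in B6 Bs 4. The remaining array, B6 Bs 1 for Apoe, read 1.06 against 0.73 to 0.74 on the others.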

How the results depend on the processing

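The counts of calls moved with most choices, and the cause was not tested. With only features measured on every array tested, 0 higher and 0 lower features passed. Counts of higher, lower, measured-everywhere and whole-group-at-the-floor calls were 26, 17, 0 and 32 with arrays centred on the median, 5, 5, 2 and 7 with a trend in the spread and robust moderation, and 180, 134, 45 and 180 with array weights, where 3 opposite strain effects also passed. They were 14, 9, 1 and 8 with the spread taken only from groups not wholly at the floor, 91, 71, 9 and 113 with every probe set on its own (35032 tested), and 27, 9, 1 and 29 at a threshold of 0.01. At a threshold of 0.10, 70 were lower and 12 of the calls measured everywhere. Percentile ranks gave 58 lower calls and 7 measured everywhere. Without a floor 91 features passed, 2 of them measured everywhere, 7 were shared with the 98, and the signs of the Pla2g6 interaction (-1.66) and the Apoe interaction (0.145) turned. A floor of 1 unit gave 14 measured everywhere, and a separate spread in each cell type 47 with a whole group at the floor. Without 4 arrays that stood apart (Sle2c1 B1a 4, B6 Bs 1, B6 Bs 3 and Sle2c1 Bs 3), 19 were lower and 2 measured everywhere, with 75.3% of calls higher against 61.2%.

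With the replicate number as a block across all groups, 44 calls had a whole group at the floor. With a block within each cell type the 4 counts were 29, 16, 1 and 33, and with a block within Bs alone, chosen after seeing the data, where the numbers paired the arrays, 51 higher, 38 lower and 1 measured everywhere. Of the calls with the block within Bs alone, 62 were shared with the 98 of the main fit. Leaving out each array in turn gave 32 to 100 higher, 16 to 83 lower, 1 to 9 measured everywhere, 37 to 131 with a group at the floor, 0 to 1 opposite effects and 0.205 to 0.362 units for Cdkn2c (limma adjusted p 0.515 to 0.91). Higher calls moved by over 1.5 times without B6 B1a 3 (37), Sle2c1 B1a 1 (100), Sle2c1 B1a 4 (94), B6 Bs 2 (35), B6 Bs 4 (32), Sle2c1 Bs 1 (35), Sle2c1 Bs 2 (35) or Sle2c1 Bs 3 (36). Lower calls did so without Sle2c1 B1a 1 (83), B6 Bs 2 (17), B6 Bs 4 (16), Sle2c1 Bs 1 (17), Sle2c1 Bs 2 (19) or Sle2c1 Bs 3 (20). The deposited score has no depth, and values raised to the floor lost their order.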

Other observations

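Neutrophil markers had the highest list median of the interaction, 0.355 units over 11 tested genes, with 4 higher at an unadjusted p under 0.05 (7.42% of all features in either direction) and 0 past the limma test. The gelatinase gene Mmp9 averaged 2.07 ± 0.377 and 2.27 ± 0.106 units in B6 and Sle2c1 B1a and 1.55 ± 0.189 and 0.911 ± 0.29 in B6 and Sle2c1 Bs (SD, n = 4), with an interaction of 0.84 (limma adjusted p = 0.29). S100a8, a subunit of calprotectin, had 0.46 (adjusted p = 0.519).

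Of 7 germinal centre genes, 3 had an unadjusted p under 0.05 and 0 passed the limma test. Rgs13, a regulator of chemokine receptor signalling, averaged 1.18 ± 0.0814 and 1.69 ± 0.568 units in the B1a groups and 2.14 ± 0.302 and 1.46 ± 0.195 in the Bs groups of B6 and Sle2c1 (interaction 1.20, adjusted p = 0.194). The death receptor gene Fas had -0.63 (adjusted p = 0.177) and Basp1 0.53 (adjusted p = 0.19). Rgs13 was named after its values had been seen. Type I interferon genes had a median of 0.182 over 19 genes, with 1 at an unadjusted p under 0.05. Platelet markers had a median of -0.491 over 4 tested genes, 2 of them lower at an unadjusted p under 0.05. Follicular and marginal zone B cell genes had medians of -0.174 and -0.125 over 10 genes each. None of these lists had a member past the limma test.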
